A study of Mus musculus with 18 samples.

Results

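The genes described are those of the heat shock proteins and chaperones, the proteins that help other proteins to fold, to stay soluble and to reach their compartment. They were chosen by symbol among the genes counted by RNA-Seq: small heat shock proteins (Hspb), the Hsp70 and Hsp110 proteins (Hspa, Hsph), Hsp90, the mitochondrial pair Hspd1 and Hspe1, J proteins (Dnaja, Dnajb, Dnajc), subunits of the CCT ring (Cct2 to Cct8 and their relatives) and Bag1 to Bag6. Of the 34620 genes listed, 87 met this rule after 8 names marked as pseudogenes were dropped, and 78 of these had enough counts to be tested. The other 9 (Cct6b, Cct8l1, Dnajb7, Dnajb8, Dnajb13, Dnajc5b, Dnajc5g, Dnajc22 and Hspb9) had few counts or none in all 6 libraries.

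RNA came from the granule cell layer of the ventral dentate gyrus, the part of the hippocampus linked to anxiety, microdissected from frozen sections of adult male Swiss Webster mice aged 8 to 12 weeks. WT males descended from WT mothers in a lineage bred in parallel. F1 males were WT by genotype and born to mothers with 1 disrupted copy of the serotonin 1A receptor gene (heterozygotes, H), from crosses in which the father was H too, with H and knockout littermates. The study names the H maternal environment as what all F1 males were exposed to, and effects of the father or of littermates cannot be told apart from it in F1. F2 males were sons of F1 females and WT males, with a WT mother and H grandparents on her side. In F2, effects of the grandmother, the grandfather and the mother's littermates cannot be told apart. Each group had 2 libraries, the number of animals behind a library is not given in the sources used here, and p-values therefore measure only the spread between these libraries. The comparisons of F1 and of F2 with WT ask which genes differ with H parents or H maternal grandparents, and they share the same 2 WT libraries.

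Chaperones of the Hsp70 family bind unfolded stretches of protein and release them in a cycle that is started by J proteins, which bring the client, and closed by nucleotide exchange factors such as the Hsp110 and BAG proteins. Hsp90 takes over clients that are nearly folded, the CCT ring encloses actin and tubulin, and small heat shock proteins hold unfolded protein without using ATP. Heat shock factor 1 switches on the cytosolic genes after heat or other stress, while the unfolded protein response switches on those of the endoplasmic reticulum (ER), led by Hspa5 (BiP).

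Library depth ranged from 26358165 to 33727936 reads assigned to genes. Values are given as CPM, counts scaled to library size by the TMM method in edgeR, and CPM per kb of exon is used where levels of different genes are compared. All 7 granule cell markers were present in every library, among them Prox1 at 228 to 345 CPM, and their summed level was 1163 and 1153 CPM in WT, 937 and 1122 CPM in F1 and 1349 and 1230 CPM in F2. Of these, Trpc6 and Plk5 were called lower in F1 and in F2. Of every 100 reads aligned to 1 place, 17.7 and 20.7 lay outside annotated exons in WT, against 13.8 and 12.2 in F1 and 13.9 and 17.4 in F2, so that both WT libraries were above the others. The summed level of 8 oligodendrocyte markers was 1098 and 1994 CPM in WT, 2975 and 2239 CPM in F1 and 1534 and 2897 CPM in F2. All 8 had both F1 libraries above both WT libraries, and 2 had both F2 libraries above. The 6 astrocyte markers summed to 1215 and 1274 CPM in WT, 1462 and 1793 CPM in F1 and 1989 and 1620 CPM in F2. Of these 6 markers, 5 had both F1 libraries above both WT libraries, and all 6 had both F2 libraries above. The 6 microglia markers summed to 107 and 108 CPM in WT, 127 and 146 CPM in F1 and 166 and 140 CPM in F2, with 5 of 6 above WT in F1 and 5 of 6 in F2, where 4 were called higher, and the 7 markers of endothelium and pericytes to 135 and 155 CPM, 162 and 188 CPM, and 190 and 181 CPM, with 4 and 6 of 7 above. At an adjusted p under 0.01 by edgeR's exact test, 3 oligodendrocyte markers were called higher in F1 and 2 in F2. Of the astrocyte markers 1 and 4 were called higher, and 1 endothelial marker in F2. Of 7 interneuron markers, Slc32a1 was called higher in F1 and F2 and Gad2 in F2. Of 6 markers of CA fields and mossy cells, Csf2rb2 was lower in both, at -1.86 and -2.02 on the log2 scale. Bok was called higher in F1 and Pou3f1 in F2. No marker of these lists was at 0, and their part in the differences below was not tested. In RNA from a dissected layer, fewer cells of a type and less RNA per cell cannot be told apart.

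The most abundant chaperone transcript in WT was Hsp90ab1, the constitutive cytosolic Hsp90, at 552 CPM per kb. It was followed by Hsp90aa1, the inducible Hsp90, at 176 CPM per kb, by Hspa8, the constitutive Hsp70, at 137 CPM per kb, by Hspa5 at 121 CPM per kb and by Hsp90b1 (Grp94), the Hsp90 of the ER, at 107 CPM per kb. The order of Hspa8, Hspa5 and Hsp90b1 does not hold in each WT library, because the ER genes differed widely between the 2. Among the CCT subunits Cct2 was highest at 99.2 CPM per kb, and among the J proteins Dnaja2 at 83.1 CPM per kb. The lead of Dnaja2 over Dnaja1 rests on annotated exon length, 2839 against 8629 bases, as their mean WT levels were 236 and 231 CPM. The stress-inducible Hsp70 genes Hspa1a and Hspa1b were low, at 1.51 and 5.78 CPM per kb. So were the Hspb genes, of which Hspb11 had the highest level with 6.87 CPM per kb. They were grouped by symbol alone, and whether each encodes a small heat shock protein was not checked. Of the 50-base stretches of Hspa1a and Hspa1b, 61.0% and 61.2% also occur in another coding gene, each other for the most part, and reads from these stretches were not counted. All members together summed to 10612 and 9117 CPM in WT, 10811 and 10896 CPM in F1 and 9421 and 9824 CPM in F2, where the F1 and F2 libraries did not overlap.

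**Figure D1:**
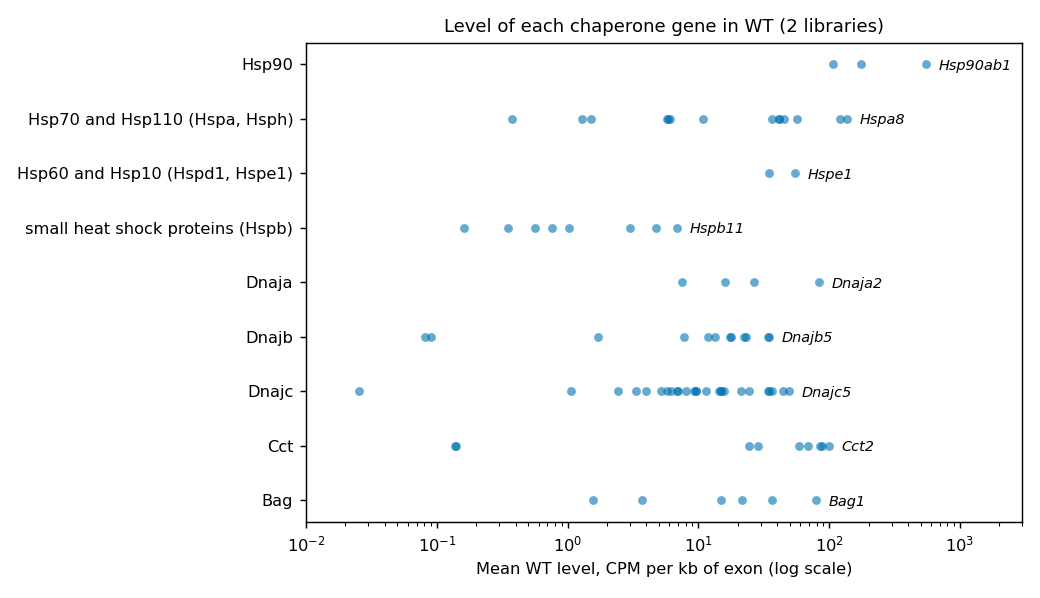
Level of each member in WT by family, as the mean CPM per kb of exon of the 2 WT libraries on a log scale, with the most abundant gene of each family named. Hsp90ab1 lies farthest to the right at 552 CPM per kb, and every Hspb gene lies at or below 6.87 CPM per kb.

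In F1, 3 of the 78 members passed an adjusted p under 0.01 by edgeR's exact test against WT, and all 3 were higher: Dnajc27, Dnajc6 and Hspa9. This is 3.85% of the members, against 12.3% of all 17421 genes tested. Among all genes 3.77% were called higher and 8.54% lower, while no member was called lower. In F2, 3 members passed, Dnajb2 and Dnajc27 as higher and Dnajc1 as lower, where 12% of all genes passed, 3.86% higher and 8.1% lower. Chaperone genes thus passed this threshold in a smaller share than the whole table in both comparisons. The 0 members lower in F1 compare with 3 lower members at an unadjusted p under 0.05, and DESeq2 also called 3 members in F1, all higher.

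The calls in F1 and F2 changed with the threshold and the test. With an adjusted p under 0.05, 13 members were higher and 1 was lower in F1, where 8.08% of all genes were called higher and 12.7% lower. In F2 the same threshold gave 6 higher and 2 lower members, where the whole table had 8.21% higher and 12.5% lower. By edgeR's quasi-likelihood test at 0.01, no member passed in F1, where 26 members had an unadjusted p under 0.05 by that test, and Dnajb2 and Dnajc27 passed in F2. That test called 5.91% of all genes in F1 and 5.72% in F2. With the replicate number as a block it called no member in either comparison.

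Most members lay on the higher side in F1. Both F1 libraries were above both WT libraries in 32 members (41%) and below them in 9 (11.5%), where the whole table had 29.8% above and 30.6% below. An unadjusted p under 0.05 was reached by 26 members in F1, of which 23 were higher and 3 lower, or 33.3% of the members against 32.6% of all genes. In F2 both libraries were above WT in 29 members (37.2%) and below in 19 (24.4%), where the whole table had 31% above and 32% below. In F2, 24 members reached an unadjusted p under 0.05, 12 in each direction, or 30.8% against 32.4% of all genes. The median log2 fold change of the members was 0.11 in F1 and 0.02 in F2, beside 0.01 and -0.00 over all genes. With 1 library left out at a time, the members' median lay between 0.050 (without F1 replicate 1) and 0.17 in F1. In F2 it lay between 0.0047 (without WT replicate 2) and 0.11 (without WT replicate 1). The median absolute log2 fold change was 0.21 in F1 and 0.20 in F2, smaller than the 0.25 and 0.26 of all genes.

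**Figure D2:**
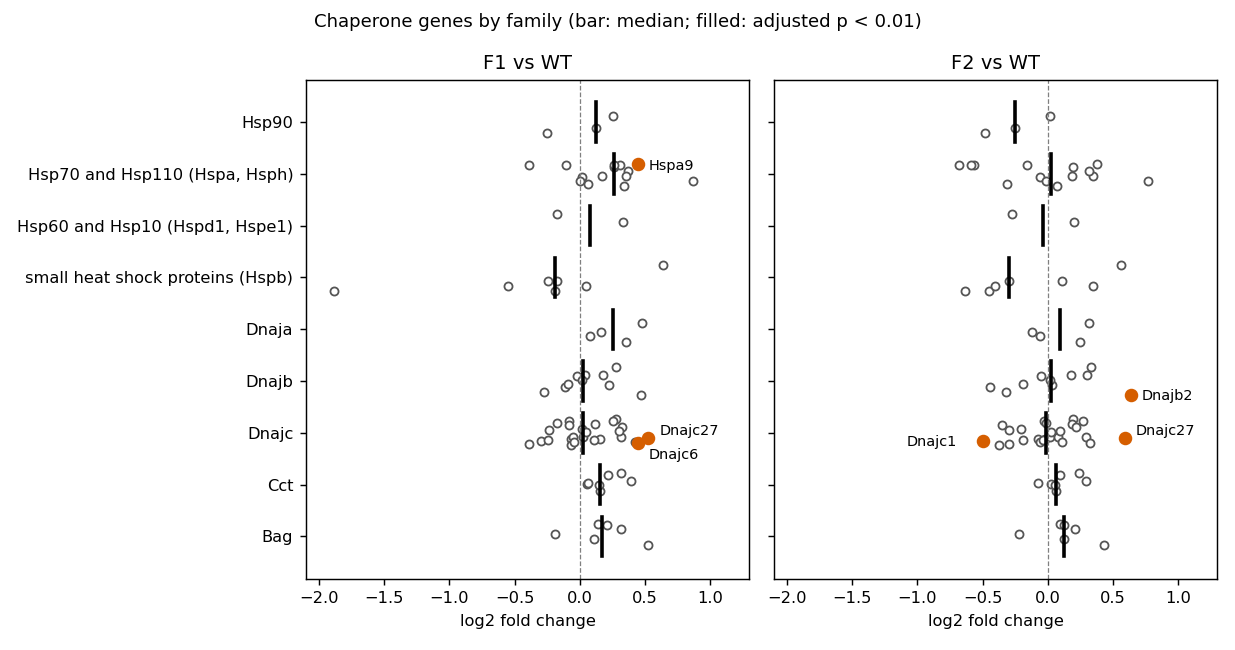
Log2 fold change of each tested member against WT in F1 (left) and F2 (right), by family; bars are family medians and filled points have an adjusted p under 0.01. The medians of Hsp70 and Hsp110 (0.26) and Dnaja (0.26) lie to the right of 0 in F1, and those of Hsp90 (-0.25) and the small heat shock proteins (-0.30) lie to the left in F2, where without WT replicate 1 they were -0.060 and 0.21.

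Dnajc27 was the 1 member past an adjusted p of 0.01 as higher in both F1 and F2 by the exact test. DESeq2, upper-quartile factors, dispersion from the 2 groups compared and the fit without F1 replicate 1 also called Hspa9 in both, and at 0.05 Dnajb2, Dnajc6, Hspa9 and Hspb8 were higher in both as well. It encodes a Rab-like GTPase that carries a J domain and lies on chromosome 12 from 4082612 to 4110602 on the plus strand (mm9). Its level was 70.8 and 67.1 CPM in WT, 88.9 and 110 CPM in F1 and 110 and 97.6 CPM in F2. All F1 and F2 libraries were above both WT libraries, and F1 and F2 overlapped. In log2 terms the difference was 0.53 ± 0.13 (SE; adjusted p = 0.0012) in F1 and 0.59 ± 0.13 (SE; adjusted p = 0.00023) in F2 by edgeR's exact test. The F1 call was lost without either WT library and without F1 replicate 2, where the value was 0.37 (adjusted p = 0.078), and the F2 call without WT replicate 2 (adjusted p = 0.013) and without F2 replicate 1 (adjusted p = 0.041).

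Dnajc6 (auxilin), on chromosome 4 from 101169253 to 101315404 (mm9), is the neuronal J protein that brings Hsc70 to clathrin-coated vesicles so that the coat comes off. It had 222 and 216 CPM in WT, 281 and 316 CPM in F1 and 274 and 273 CPM in F2, so that the 2 WT libraries were nearly equal and every other library was higher. It was higher by 0.45 ± 0.12 (SE; adjusted p = 0.0017) in F1 and by 0.32 ± 0.12 (SE; adjusted p = 0.033) in F2 on the log2 scale. Hspa9 (mortalin) encodes the Hsp70 of the mitochondrial matrix, which pulls imported proteins through the inner membrane. Its level was 184 and 168 CPM in WT, 223 and 256 CPM in F1 and 237 and 220 CPM in F2. Again all F1 and F2 libraries lay above WT, by 0.45 ± 0.12 (SE; adjusted p = 0.0031) in F1 and 0.38 ± 0.12 (SE; adjusted p = 0.014) in F2 on the log2 scale. The F1 calls of Dnajc6 and Hspa9 were lost without F1 replicate 2, with adjusted p = 0.052 and 0.087 by edgeR's exact test, and without either WT library.

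Dnajb2 (HSJ1), a J protein of neurons that hands ubiquitylated clients to the proteasome, lies on chromosome 1 from 75233040 to 75241379 (mm9). It had 17.9 and 15.4 CPM in WT, 21.6 and 24.4 CPM in F1 and 24.9 and 26.8 CPM in F2. The 3 groups did not overlap, with WT lowest and F2 highest. It rose in F2 by 0.64 ± 0.15 on the log2 scale (SE; adjusted p = 0.00068), and in F1 the value was 0.47 ± 0.16 (SE; adjusted p = 0.018). Dnajc1, on chromosome 2 from 18117281 to 18314457 (mm9), encodes a J protein of the ER membrane that works with BiP at ribosomes, and 6.43% of its exon bases are shared with other genes. Its level was 29.2 and 27.2 CPM in WT, 23.7 and 22.2 CPM in F1 and 19.8 and 20.1 CPM in F2, in the order WT, F1, F2 without overlap. It fell by 0.50 on the log2 scale in F2 (SE 0.14, adjusted p = 0.0047), and the F1 value was -0.30 ± 0.14 (SE; adjusted p = 0.12). The call of Dnajb2 was lost without WT replicate 2 (adjusted p = 0.041 by edgeR's exact test) and that of Dnajc1 without WT replicate 1 (adjusted p = 0.11 by edgeR's exact test), and both were lost without F2 replicate 1 and without F2 replicate 2. Dnajc1 also lost its call without WT replicate 2, with no low-count filter and by the quasi-likelihood test (adjusted p = 0.015).

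**Figure D3:**
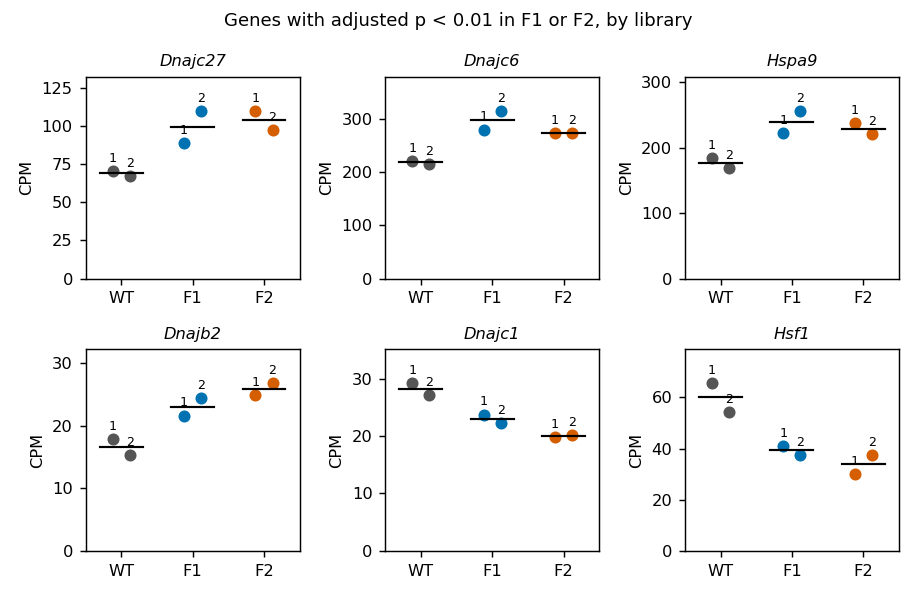
Level in each library (CPM; numbers are replicates, lines are means of 2 libraries) of the 5 members with an adjusted p under 0.01 in F1 or F2, and of Hsf1, the gene of heat shock factor 1. For Dnajc27, Dnajc6, Hspa9 and Dnajb2 all F1 and F2 libraries are above both WT libraries, and for Dnajc1 and Hsf1 all are below.

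The Hsp70 and Hsp110 family had 14 tested members, with medians of 0.26 in F1, where 11 values were positive, and 0.03 in F2, where 7 were. The F1 median was 0.41 without WT replicate 1 and 0.041 without WT replicate 2, and over all libraries left out the F2 median ran from -0.013 to 0.17. Hspa9 was the 1 member of the family called at 0.01. Hspa4 and Hspa4l, Hsp110 proteins that recycle Hsp70, and Hspa13, an Hsp70 relative of microsomes, passed an adjusted p under 0.05 in F1 as higher, with log2 fold changes of 0.35, 0.34 and 0.37. In F2 these genes had 0.18, 0.07 and 0.32, none past 0.05. Hspa2, an Hsp70 best known from the testis, had values of -0.00 in F1 and -0.02 in F2 and from 133 to 147 CPM over all 6 libraries.

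Hspa8 and the inducible Hsp70 genes did not pass 0.01 in either comparison. Hspa8 had 629 and 507 CPM in WT, 618 and 566 CPM in F1 and 424 and 491 CPM in F2. The F1 libraries lay within the range of WT and both F2 libraries lay below it, at 0.06 (adjusted p = 0.81) and -0.31 (adjusted p = 0.085) on the log2 scale. Hspa1b had 19.8 and 12.6 CPM in WT, 14.0 and 10.7 CPM in F1 and 9.83 and 10.4 CPM in F2. Its F2 libraries were below all others, and its F2 log2 fold change of -0.68 had an adjusted p of 0.019, past 0.05 but not 0.01. Hspa1a had 5.82 and 3.03 CPM in WT, 6.50 and 4.53 CPM in F1 and 2.65 and 3.34 CPM in F2. Its log2 differences from WT were 0.31 (adjusted p = 0.52) in F1 and -0.57 (adjusted p = 0.21) in F2. Hsph1, the heat-inducible Hsp110, had 343 and 243 CPM in WT, 333 and 370 CPM in F1 and 257 and 266 CPM in F2, where WT replicate 1 was near F1 and WT replicate 2 near F2.

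Of the 3 Hsp90 genes none passed 0.01. Hsp90ab1 had 1771 and 1538 CPM in WT, 1965 and 1988 CPM in F1 and 1613 and 1732 CPM in F2. Both F1 libraries were above WT, with a log2 fold change of 0.26 (adjusted p = 0.11), and F2 lay within the WT range, with 0.02 (adjusted p = 0.96). Hsp90aa1 had 703 and 680 CPM in WT, 787 and 719 CPM in F1 and 545 and 619 CPM in F2. Here the groups did not overlap, F1 being above WT and F2 below it, with log2 fold changes of 0.12 (adjusted p = 0.51) and -0.25 (adjusted p = 0.13). Of all 78 members, 3 had every F1 library above WT and every F2 library below it: Hsp90aa1 and the Hsp70 partners Dnaja1 and Dnaja2. This order was found in 167 of all 17421 genes, or 0.959%, beside 3.85% of the members.

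Several ER members, like some inducible cytosolic ones, differed widely between the WT libraries. Hspa5 (BiP), the Hsp70 of the ER and sensor of unfolded protein there, lies on chromosome 2 from 34627490 to 34632051 (mm9). It had 605 CPM in WT replicate 1 and 248 CPM in WT replicate 2, with 379 and 414 CPM in F1 and 240 and 325 CPM in F2. WT replicate 1 was thus the highest of the 6 libraries and WT replicate 2 among the lowest, so that the WT pair spanned both F1 libraries. On the log2 scale it differed from WT by -0.10 ± 0.29 (SE; adjusted p = 0.85) in F1 and by -0.59 ± 0.29 (SE; adjusted p = 0.13) in F2. Against WT replicate 2 alone the F1 value was 0.68 (adjusted p = 0.0061) and against WT replicate 1 alone it was -0.60 (adjusted p = 0.0095), both by edgeR's exact test with the lone library assumed to vary like the other groups. Each WT library by itself therefore gave a call in F1, in opposite directions. In F2 the values were 0.20 against WT replicate 2 and -1.09 (adjusted p = 3.9e-08 by edgeR's exact test) against WT replicate 1.

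Hsp90b1, Dnajb11 (ERdj3), a J protein that serves BiP, and Dnajc3 (p58IPK), which serves BiP and restrains the kinase PERK, were also higher in WT replicate 1. Hsp90b1 had 539 and 323 CPM in WT, 351 and 371 CPM in F1 and 279 and 338 CPM in F2. Dnajb11 had 90.1 and 56.3 CPM in WT, 69.1 and 66.3 CPM in F1 and 50.3 and 57.3 CPM in F2. For both genes WT replicate 1 was the highest library and the F1 pair lay inside the WT pair. Dnajc3 had 58.8 and 37.6 CPM in WT, 51.2 and 67.8 CPM in F1 and 51.5 ± 2.09 CPM (SD, n = 2) in F2. The F2 log2 fold changes were -0.48 (adjusted p = 0.055) for Hsp90b1, -0.44 (adjusted p = 0.062) for Dnajb11 and 0.09 (adjusted p = 0.79) for Dnajc3, and those in F1 were -0.25, -0.11 and 0.30. Without WT replicate 2, Hsp90b1 and Hspa5 were called lower in F1, and without WT replicate 1, Hspa5 and Dnajc3 were called higher, each by edgeR's exact test at 0.01. The WT libraries of other ER members lay close together: Dnajb9 (ERdj4) had 42.4 and 40.8 CPM in WT and from 40.8 to 42.9 CPM over all 6 libraries, and Dnajc10 (ERdj5), which reduces disulphide bonds, had 71.6 and 71.9 CPM in WT.

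**Figure D4:**
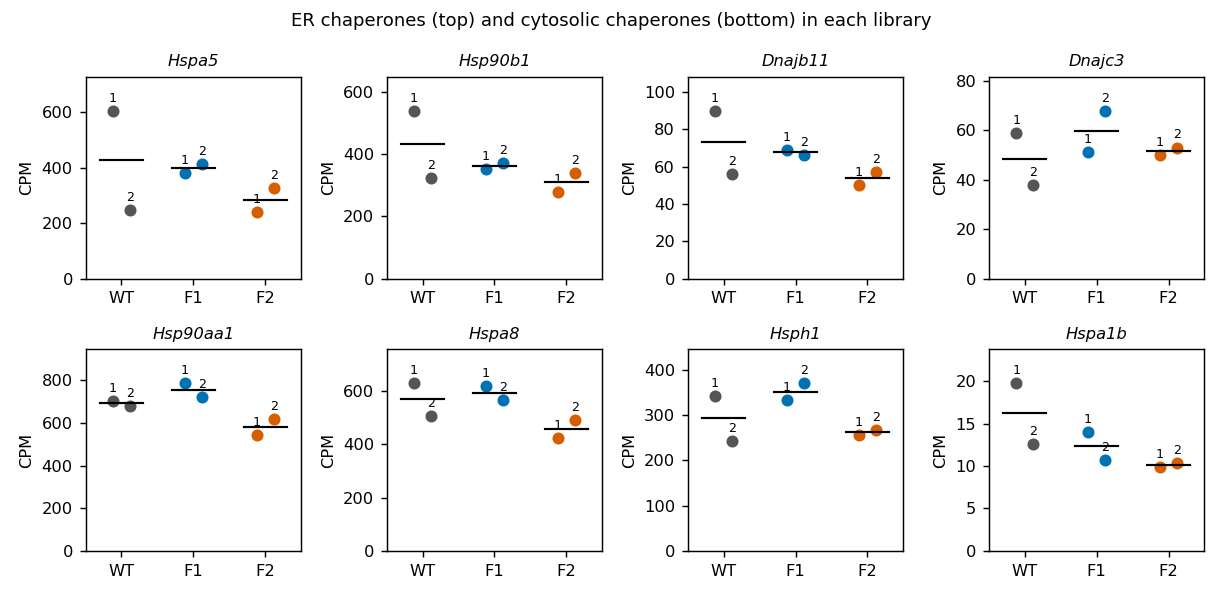
Level in each library (CPM; numbers are replicates, lines are means of 2 libraries) of 4 ER chaperone genes (top) and 4 cytosolic ones (bottom). WT replicate 1 is the highest library for Hspa5, Hsp90b1, Dnajb11, Hspa8 and Hspa1b, and for Hsp90aa1 F1 lies above and F2 below both WT libraries.

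Because ER genes differed together between the WT libraries, the 250 bases before the start sites of the members were searched for the ER stress element, the letters CCAAT and CCACG with any 9 bases between them, on either strand (CGTGG and ATTGG on the opposite one). The promoters are those of RefSeq on GRCm38.p6, in which 71 of the 87 members had an entry. The element was found in 37 of 32851 promoters (0.113%), and 3 of these belong to members: Hspa5, Hsp90b1 and Dnajc3. Their windows are shown 5′ to 3′ on the strand of the gene, with the element in capitals: Hspa5 at chr2:34771840-34772089 on the plus strand, Hsp90b1 at chr10:86705445-86705694 on the minus strand and Dnajc3 at chr14:118937682-118937931 on the plus strand.
Hspa5: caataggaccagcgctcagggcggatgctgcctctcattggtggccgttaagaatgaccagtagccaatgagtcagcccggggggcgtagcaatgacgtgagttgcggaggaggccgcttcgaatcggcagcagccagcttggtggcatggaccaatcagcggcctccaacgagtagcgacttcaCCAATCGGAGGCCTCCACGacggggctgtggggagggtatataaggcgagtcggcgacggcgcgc
Hsp90b1: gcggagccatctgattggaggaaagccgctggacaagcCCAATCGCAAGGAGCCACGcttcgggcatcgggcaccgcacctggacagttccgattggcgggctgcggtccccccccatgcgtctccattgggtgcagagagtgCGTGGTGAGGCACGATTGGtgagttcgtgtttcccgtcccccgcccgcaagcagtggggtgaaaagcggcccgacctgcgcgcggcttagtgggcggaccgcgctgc
Dnajc3: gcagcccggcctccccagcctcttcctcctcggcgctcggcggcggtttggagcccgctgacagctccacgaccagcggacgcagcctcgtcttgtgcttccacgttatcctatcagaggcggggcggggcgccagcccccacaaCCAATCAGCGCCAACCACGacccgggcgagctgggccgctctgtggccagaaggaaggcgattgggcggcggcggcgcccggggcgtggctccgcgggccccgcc
Hsp90b1 held 2 matches, 1 on each strand, and the other windows 1 each. Such a match is a description of the letters and not a bound site. The search was prompted by the WT difference of the ER genes. Leaving out the members and the ER folding genes described below, 9 genes over 1 CPM held the element in this window. Of these, 7 were higher in WT replicate 1 than in WT replicate 2, with a median log2 ratio of 0.19 and 3 ratios over 0.5. Of all 14659 genes, 8087 were higher in WT replicate 1, with a median of 0.03 and 2.83% over 0.5. Hspb1, Hspa1a and Dnajb11, whose WT libraries also differed widely, were not among the members found, and 16 members had no entry. The cause of the WT difference was not tested.

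The difference between the WT libraries was measured over all members. At or above a mean level of 1 CPM, 75 members and 14659 genes in all could be compared. WT replicate 1 exceeded WT replicate 2 by over 0.5 on the log2 scale in 9 of the 75 members (12%), against 415 of all genes (2.83%), and was the higher library in 57 members and in 8087 of all genes. The largest log2 ratios were 1.49 for Hspb1, 1.29 for Hspa5, 0.94 for Hspa1a, 0.74 for Hsp90b1 and 0.68 for Dnajb11, and 21 of all genes had a larger ratio than Hspa5. In the other direction, Dnajb3 had -1.12, at a low level of 1.09 and 2.36 CPM in WT, and Dnajc19 had -0.41. Hspb1 (Hsp27), a small heat shock protein induced by stress, had 7.24 and 2.57 CPM in WT, 4.19 and 4.44 CPM in F1 and 2.58 and 3.75 CPM in F2. Its adjusted p from edgeR was 0.79 in F1 and 0.26 in F2. Dnajb1 (Hsp40), the inducible J partner of Hsp70, had 52.6 and 34.6 CPM in WT, 52.9 and 48.8 CPM in F1 and 43.4 and 45.9 CPM in F2. For this gene the value of WT replicate 1 was like that of F1, and WT replicate 2 was below every other library. The list of 10 immediate early genes, which respond to activity and to handling, summed to 193 and 161 CPM in WT. It summed to 373 and 191 CPM in F1 and 189 and 184 CPM in F2. Its part in the difference between the WT libraries was not tested.

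**Figure D5:**
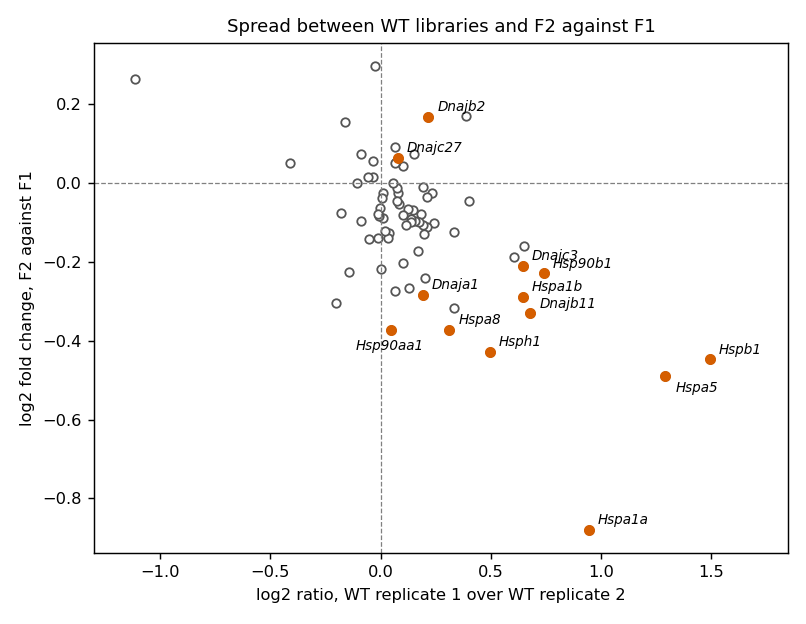
For 75 members with a mean of at least 1 CPM, the log2 ratio of WT replicate 1 to WT replicate 2 (horizontal) and the log2 fold change of F2 against F1 (vertical), which use different libraries; named genes are filled. Hspb1 (1.49), Hspa5 (1.29) and Hspa1a (0.94) lie farthest to the right, and Hspa1a is lowest with -0.88 in F2 against F1.

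In the mitochondria, Hspd1 (Hsp60) forms the folding chamber and Hspe1 (Hsp10) its lid, and their genes lie head to head. RefSeq gives Hspd1 2 starts, of which 1 lies 216 bases from that of Hspe1 with the shared promoter between them, and the other lies within Hspe1. Hspd1 had 98.4 and 85.9 CPM in WT, 109 and 123 CPM in F1 and 106 and 106 CPM in F2. Hspe1 had 84.0 and 76.2 CPM in WT, 76.6 and 65.2 CPM in F1 and 64.5 and 68.0 CPM in F2. All F1 and F2 libraries were above WT for Hspd1, while for Hspe1 both F2 libraries were below WT and F1 overlapped it. The log2 fold changes were 0.33 (adjusted p = 0.040) and 0.20 (adjusted p = 0.26) for Hspd1, and -0.18 (adjusted p = 0.33) and -0.27 (adjusted p = 0.10) for Hspe1, in F1 and F2, so that neither passed 0.01. The ratio of Hspd1 to Hspe1 CPM was 1.17 and 1.13 in WT, 1.42 and 1.89 in F1 and 1.65 and 1.55 in F2, without overlap of WT with the other groups. This ratio was not tested, and of the exon bases of Hspd1 and Hspe1 4.24% and 7.60% are shared with other genes.

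The window before Hspe1, which reaches into its neighbour's side, was one of 153 promoters (0.466%) that held a heat shock element the letters GAA, TTC and GAA in a row with any 2 bases between neighbours, on either strand. The other members with this element were Hspd1 and Dnajb6. Only this exact run of letters within 250 bases was searched for, and 16 members had no entry. Other members may therefore hold the element elsewhere or in another form. The window at chr1:55087898-55088147 (GRCm38.p6, RefSeq, plus strand, 5′ to 3′) is shown because it lies between the pair, with 2 overlapping matches in capitals.
Hspe1: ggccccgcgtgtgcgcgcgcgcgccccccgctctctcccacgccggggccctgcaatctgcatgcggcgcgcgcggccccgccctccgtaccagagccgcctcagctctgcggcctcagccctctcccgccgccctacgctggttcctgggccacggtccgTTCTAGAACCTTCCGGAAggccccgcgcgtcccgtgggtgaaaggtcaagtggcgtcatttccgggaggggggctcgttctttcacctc
The letters are the same run for both genes, on opposite strands, in the window of the Hspd1 start that faces away from Hspe1. The cAMP response element TGACGTCA, present in 1.55% of all promoters, was found in 1 of the 71 members with an entry, Dnajc27. It was thus no more frequent among members than among all promoters.

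Among the J proteins, Dnaja had 4 tested members, Dnajb 10 and Dnajc 25, with medians of 0.26, 0.03 and 0.03 in F1 and 0.09, 0.02 and -0.02 in F2. Leaving out single libraries moved the Dnaja median between 0.15 and 0.36 in F1, and in F1 and F2 the medians of Dnajb and Dnajc took both signs. Dnaja1, a cytosolic partner of Hspa8, had 247 and 216 CPM in WT, 262 and 255 CPM in F1 and 211 and 214 CPM in F2. Its F1 libraries were the highest and its F2 libraries the lowest (adjusted p = 0.35 and 0.51 against WT by edgeR). Dnaja3 (Tid1), a J protein of mitochondria, Dnajc14 and Dnajc18 were past an adjusted p of 0.05 in F1 as higher, with log2 fold changes of 0.35, 0.31 and 0.32, and 36.5% of the exon bases of Dnajc14 are shared with other genes. Dnajb14, an ER membrane J protein of protein disposal, was past 0.05 in F2 with 0.33. Dnajc5 (cysteine string protein), which guards the synaptic vesicle fusion machinery, was the most abundant Dnajc gene, with 336 and 344 CPM in WT, 394 and 419 CPM in F1 and 415 and 406 CPM in F2. Its F1 and F2 libraries were all above WT, at 0.26 (adjusted p = 0.087) and 0.27 (adjusted p = 0.069) on the log2 scale. Dnajc7, which links Hsp70 and Hsp90, had 216 and 216 CPM in WT, 201 and 165 CPM in F1 and 167 and 183 CPM in F2. All were below WT, at -0.24 (adjusted p = 0.18) and -0.30 (adjusted p = 0.074) on the log2 scale.

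The 7 tested CCT genes had small positive values in F1, between 0.06 and 0.39 with a median of 0.15, and lay between -0.08 and 0.29 in F2, with a median of 0.06. None passed 0.01, and Cct6a passed 0.05 in F1. Cct6a had 116 and 103 CPM in WT, 131 and 156 CPM in F1 and 137 and 131 CPM in F2, all above WT, with log2 fold changes of 0.39 (adjusted p = 0.017) and 0.29 (adjusted p = 0.091). Cct2 showed little spread, with 195 and 194 CPM in WT, 213 and 193 CPM in F1 and 193 and 202 CPM in F2, and its log2 fold changes were 0.06 and 0.02. Tcp1, the eighth subunit under its own name and outside the rule, had 0.16 (adjusted p = 0.34) in F1 and 0.08 (adjusted p = 0.67) in F2.

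Of the 6 BAG genes, 5 had positive values in F1 and 5 in F2, and none passed 0.01. Bag3, which steers clients to autophagy and is induced by heat shock factor 1, had 4.27 and 3.87 CPM in WT, 6.47 and 5.25 CPM in F1 and 6.65 and 4.34 CPM in F2. All F1 and F2 libraries lay above WT, with log2 fold changes of 0.52 (adjusted p = 0.13) and 0.43 (adjusted p = 0.24) at a low level. Bag6, which guides tail-anchored proteins to the ER, had 247 and 210 CPM in WT, 200 and 200 CPM in F1 and 199 and 194 CPM in F2, all below WT, with -0.19 and -0.22. The Hspb genes, grouped by symbol, had 7 tested genes and none past 0.01. Their medians were -0.19 in F1 and -0.30 in F2, the latter being the value of Hspb11. With 1 library left out at a time the F1 median lay between -0.31 and -0.14 and the F2 median between -0.39 and 0.21, the last without WT replicate 1. Hspb8, the partner of Bag3, had 5.53 and 6.27 CPM in WT, 8.25 and 10.1 CPM in F1 and 9.68 and 7.72 CPM in F2. Its libraries in F1 and F2 were all above WT, with log2 fold changes of 0.64 (adjusted p = 0.019) and 0.56 (adjusted p = 0.047). Hspb3 was lower in F1 at an adjusted p of 0.022, but had from 2 to 14 counts in all 6 libraries.

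Between F2 and F1, no member passed an adjusted p under 0.01 by edgeR's exact test, where 0.74% of all genes did. The quasi-likelihood test and DESeq2 also called none, and 8 members (10.3%) had an unadjusted p under 0.05, against 8.64% of all genes. Of these, 7 were lower in F2: Hsp90aa1, Hsp90ab1, Hspa8, Hspa1a, Hsph1, Hspa4l and Dnaja1, which are cytosolic Hsp90, Hsp70 and Hsp110 genes and a J partner. Hspb3 was the 1 that was higher. Both F2 libraries were below both F1 libraries in 31 members (39.7%) and above them in 5 (6.41%), where the whole table had 19.7% below and 19.4% above. The log2 fold changes of F2 against F1 were -0.37 for Hsp90aa1 (standard error 0.12, adjusted p = 0.097), -0.24 for Hsp90ab1 (standard error 0.12, adjusted p = 0.55) and -0.37 for Hspa8 (standard error 0.14, adjusted p = 0.21). Those of Hsph1 and Hspa1a were -0.43 (standard error 0.15, adjusted p = 0.18) and -0.88 (standard error 0.32, adjusted p = 0.21). The median over the members was -0.09, with 20 positive values among 78, beside -0.00 over all genes. The immediate early gene sum, given above, was highest in F1 replicate 1. In F2 against F1 these 10 genes had a median log2 fold change of -0.46. By the exact test 1 was called lower, and 4 had both F2 libraries below both F1 libraries. Against WT their median was 0.59 in F1, where 2 were called higher, and 0.01 in F2, where 0 were called. The part of these genes in the values of the members was not tested.

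Genes that work with these chaperones were read from lists of factors and partners. Of 6 heat shock factor genes and their binding partners, Hsf1 was called. Hsf1, the main switch of the heat shock genes, had 65.6 and 54.4 CPM in WT, 40.9 and 37.6 CPM in F1 and 30.2 and 37.5 CPM in F2. All F1 and F2 libraries were below both WT libraries, and Hsf1 fell by 0.61 in F1 (adjusted p = 0.00049) and by 0.83 in F2 (adjusted p = 1e-06) on the log2 scale. By the quasi-likelihood test the adjusted p was 0.011 in F1 and 0.0026 in F2, and without WT replicate 1 the exact test gave -0.47 (adjusted p = 0.058) and -0.68 (adjusted p = 0.0030). Without F1 replicate 2 the F1 value was -0.55 (adjusted p = 0.029). Hsf2 had log2 fold changes of 0.00 and -0.32, and Hsf4 of -0.27 and -0.35, none past 0.05. Of the stress-inducible members, Hspa1b had log2 fold changes of -0.39 and -0.68 in F1 and F2, Hspa1a of 0.31 and -0.57, Hspb1 of -0.19 and -0.64, Hsph1 of 0.26 and -0.16 and Dnajb1 of 0.22 and 0.03. Bag3, induced by heat shock factor 1, had 0.52 and 0.43, and Hsp90aa1, the inducible Hsp90, had 0.12 and -0.25. None of these genes was called at 0.01 by the exact test with all libraries. In F2, Hspa1b was called lower with dispersion from the 2 groups compared. With 1 library left out at a time, its F2 value lay between -0.96 and -0.32, and that of Hspb1 between -1.18 and 0.31. In F1 the value of Dnajb1 lay between -0.038 and 0.56, and that of Hsph1 between 0.048 and 0.54.

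Of 17 cochaperones of Hsp90 and Hsp70, none was called in F1, and Ahsa2 and Unc45a were called lower in F2. Ahsa2, an activator of the Hsp90 ATPase, had 54.2 and 43.3 CPM in WT, 38.6 and 37.1 CPM in F1 and 30.5 and 36.3 CPM in F2, and fell by 0.55 in F2 (adjusted p = 0.0025). Unc45a, which with Hsp90 folds myosin, had 56.5 and 51.8 CPM in WT, 47.6 and 44.8 CPM in F1 and 36.5 and 41.7 CPM in F2, and fell by 0.47 in F2 (adjusted p = 0.0029). Both calls were lost by edgeR's quasi-likelihood test, with adjusted p = 0.018 and 0.015, and without WT replicate 1 or F2 replicate 1. That of Unc45a was also lost without WT replicate 2, without F2 replicate 2 and with no low-count filter. The medians of the 17 genes were 0.13 in F1 and 0.04 in F2. None of 5 prefoldin genes, 6 mitochondrial partners and proteases and 19 genes of ER folding and its stress response was called in F1 or F2. The ER list summed to 2710 and 1706 CPM in WT, 2183 and 2184 CPM in F1 and 1783 and 1980 CPM in F2, with WT replicate 1 the highest library, as for Hspa5. Of its 19 genes, 17 were higher in WT replicate 1 than in WT replicate 2 and 10 by over 0.5 on the log2 scale, among them Calr, at 611 and 319 CPM, and Xbp1, the transcription factor of the unfolded protein response, at 127 and 57.4 CPM.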

How the data were processed

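RNA-Seq libraries of 50-base single-end reads were analysed, 2 each from WT, F1 and F2 males. The authors aligned reads to mm9 with TopHat, without a search for new junctions, and deposited raw counts per gene from HTSeq in intersection-strict mode. Reads aligned to several places or reaching outside exons are not in these counts, and the library kit does not mark strand. Bisulfite sequencing samples were not analysed here.

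Counts were filtered by filterByExpr (17421 genes kept), scaled by TMM and compared by the exact test of edgeR 4.0.16 in R 4.3.3, with common (0.0113) and tagwise dispersion from all 6 libraries and Benjamini-Hochberg adjustment over all genes tested. The threshold was an adjusted p under 0.01. Standard errors follow from mean counts and dispersion. The procedure was tested on simulated counts in which 200 genes had known changes. These were larger than the changes of the members called here, so the simulation does not show how changes of that size fare. Replicates were not duplicates, with a chi-square per degree of freedom of 23, 18.5 and 22.3 in WT, F1 and F2. Alternatives were the quasi-likelihood test alone or with replicates as a block, DESeq2 1.42.0, other scalings, filters, dispersions and thresholds, and each library left out. Positions and exon lengths are of GENCODE M1 on mm9, with the exons of all transcripts of a gene merged. Plots were made with Python 3.11.15 and matplotlib 3.10.9.

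Members and lists were chosen with earlier results of these data known. Values in every library are given for members past the threshold, for a set of 14 chaperones of known roles and for the 3 most abundant members, and other members named were chosen after their values were seen.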

Additional observations from a re-analysis of the deposited data

How the results depend on the processing

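The count of members past the threshold in F1 was 3, and it was 0 by the quasi-likelihood test, 0 by that test with the replicate block and 14 at an adjusted p under 0.05. In F2 it was 3, and it was 0 with the replicate block, 5 with dispersion from the 2 groups compared and 8 at an adjusted p under 0.05. Leaving out each library gave from 0 to 6 members in F1 and from 0 to 6 in F2. In F1 the 5 members called without WT replicate 1 were all higher and the 2 called without WT replicate 2 were both lower, and none was called without F1 replicate 2. In F2 the 6 called without WT replicate 2 were all lower, and none was called without F2 replicate 1. Between F2 and F1 the count was 0 in every alternative. The replicate numbers did not pair the libraries, with correlations of deviations of -0.00862, -0.0898 and -0.23. A block with crossed F2 numbers, chosen after seeing the data, called 2, 3 and 0 members.

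Of 608 log2 fold changes recomputed for named members, 546 kept their direction and side of the threshold, 29 lost the call, 19 gained one and 14 changed sign. The 608 values belong to 38 results, and the 29 lost calls fell in 6 of these. Most results had no call to lose, so the 546 do not measure how stable the calls were. Those that changed sign ranged, over libraries left out, in F1 from -0.068 to 0.87 for Hspa1a, -0.076 to 0.23 for Hspa8, -0.60 to 0.68 for Hspa5, -0.57 to 0.17 for Hsp90b1, -0.74 to 0.75 for Hspb1 and -0.038 to 0.56 for Dnajb1. In F2 they ranged from -1.09 to 0.20 for Hspa5, -0.073 to 0.13 for Hsp90ab1, -0.38 to 0.11 for Hsph1, -1.18 to 0.31 for Hspb1 and -0.23 to 0.37 for Dnajb1. Hsp90ab1 in F2 was -0.00046 with library size only. The causes were not tested. Of 198 recomputed values of the family medians, 19 moved by more than the spread between replicates, all of them with a library left out. Members under 1 CPM rest on few counts, and a gene's spread is borrowed from other genes because each group has 2 libraries.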
